A study of Caenorhabditis elegans with 12 samples.

Results

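Caenorhabditis elegans carrying eat-2(ad465) and acs-20(tm3232) together (strain DCL33) was compared with the wild-type strain N2. The comparison rests on 6 of the 12 whole-worm RNA libraries of the series, 3 of each genotype, chosen by their labelled strain and genotype alone. The other libraries were 3 of the single mutant eat-2(ad465), strain DA465, and 3 of the single mutant acs-20(tm3232), strain DCL29. They shared in the estimate of spread and served as a reference for genes described in the double mutant. All animals were grown at 20 °C and collected at the late L4 larval stage, shortly before adulthood. The mutations are germline alleles present in every cell, so no promoter or cell type limits them. Each genotype was represented by 1 strain, and the labels do not say whether its 3 libraries came from separate cultures. The p-values therefore measure only the spread between these libraries, which may be technical. The question was how the transcriptome differs when both mutations are present.

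eat-2 encodes a subunit of a nicotinic acetylcholine receptor that drives fast pumping of the pharynx, the feeding organ. Its mutants take in less food and are a standard model of dietary restriction, a state in which worms shift from growth and yolk production towards stored and recycled nutrients. The product of acs-20 is a member of the fatty acid transport protein family that joins fatty acids to coenzyme A. It acts in the epidermis, where it is needed for the permeability barrier of the cuticle. The epidermis answers cuticle damage and fungal infection with small antimicrobial peptides of the nlp-29 cluster and the caenacin (cnc) family. The intestine, where food is digested, makes yolk and a separate set of lectins, lysozymes and CUB-domain proteins that respond to bacteria.

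Counts in genes ran from 10164893 to 10842659 in wild-type and from 7558637 to 12016769 in the double mutant, and 14390 genes had enough reads to test. Wild-type replicate 3 stood apart from the other wild-type libraries. Ribosomal RNA genes took 6.30% of its gene counts against 2.63% and 2.09% in wild-type replicates 1 and 2, and 3.00%, 5.51% and 4.81% in the double mutant. Its reads for yolk, germline and oocyte genes were also the lowest of the wild-type libraries, so counts that turn on it are given without it. Reads from eat-2 were too few to check the labels, with counts of 0, 2 and 1 in wild-type and 0, 1 and 0 in the double mutant. acs-20 (WBGene00009218, chromosome IV) was read at 122.5, 89.6 and 134 CPM (the count scaled to a common library size) in wild-type and 81.7, 77.1 and 79.2 CPM in the double mutant. All double mutant libraries lay below all wild-type libraries (log2 -0.54, SE 0.14, adjusted p = 0.0148), but the adjusted p rose to at most 0.0712 when single libraries were left out, and the files do not show how many reads fall within the deleted stretch.

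Of the 14390 genes, 2526 (17.6%) differed between the double mutant and wild-type at an adjusted p under 0.05, 1286 (8.94%) higher and 1240 (8.62%) lower. Large increases outnumbered large decreases, and among genes with many reads decreases outnumbered increases. In bulk libraries of whole worms, fewer cells of a type and less RNA per cell cannot be told apart. At least 2-fold changes numbered 636 upward (4.42%) and 269 downward (1.87%), 6.29% of genes in all. A log2 change of 3 or more was seen in 88 genes that rose and 21 that fell, whereas 397 genes fell and 212 rose by less than 0.5. Among the 3598 genes with the highest average level, 751 fell (20.9%) and 261 rose (7.25%), and among the 3598 with the lowest level 96 fell and 340 rose. List counts below are to be read beside these shares and the 8.94% higher and 8.62% lower of all tested genes. Most genes named from a list were its called members with the smallest p in this comparison. Separation of their libraries follows largely from that choice and adds no support. The median log2 change over all tested genes was 0.04, and it stayed within 0.1 of 0 under every scaling tried. Each of these scalings assumes that most genes are unchanged, so such a median was set in advance. It cannot show whether all genes shifted together. By chromosome, in the Ensembl WBcel235 annotation, V had 376 higher and 239 lower of 2776 genes, and X had 161 higher and 238 lower of 1969. The count of changed genes fell to 1571 and 1581 when wild-type replicate 1 and 3 was left out in turn, and to 1676 and 1602 for double mutant replicate 1 and 2.

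**Figure D1:**
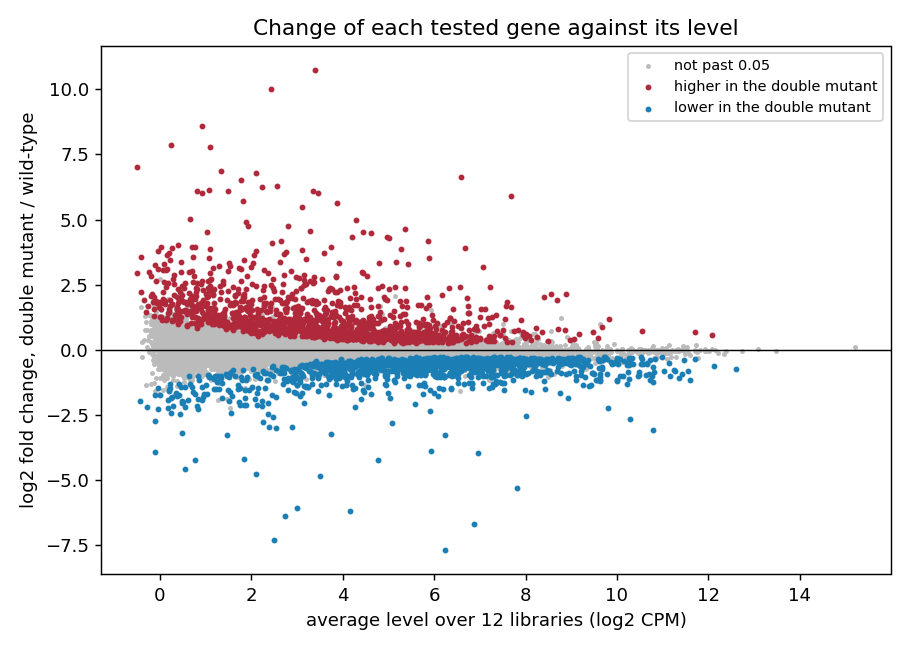
Each point is 1 of the 14390 tested genes, with its average level over all 12 libraries (log2 CPM) on the x axis and its log2 fold change of the double mutant over wild-type on the y axis; red and blue mark the 1286 higher and 1240 lower genes at an adjusted p under 0.05. Large changes upward sit at low and middle levels, and at high levels most marked points lie below 0.

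The genes that rose most included those of a lipid-binding protein, detoxification enzymes and antimicrobial peptides. F48C1.9 (WBGene00018601, chromosome I) had no reads in any wild-type library and 27, 21.7 and 18.5 CPM in the double mutant. With a floor of 3 counts over the wild-type group, it was at least 220-fold higher. far-3 (WBGene00001387, chromosome V), which encodes a fatty acid and retinol-binding protein, stood at 6.94, 7.15 and 6.61 CPM in wild-type and at 503, 389 and 361 CPM in the double mutant (log2 5.92, SE 0.17, adjusted p = 1.44e-10). srlf-34 went from 1.66, 3.01 and 2.6 CPM to 355, 245 and 127 CPM (log2 6.63, SE 0.53, adjusted p = 2.33e-05). No overlap between the wild-type and double mutant libraries was a condition for naming these genes, and double mutant replicate 1 was the highest for each.

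Detoxification and lipid enzymes followed. cyp-13A5, a cytochrome P450 gene, was at 2.38, 1.79 and 2.1 CPM in wild-type and 68, 36.4 and 37.2 in the double mutant (log2 4.49, SE 0.32, adjusted p = 3.7e-06). ugt-18, a UDP-glucuronosyltransferase gene, rose from 0.311, 0.282 and 0.1 to 21.3, 16.1 and 9.96 CPM (log2 6.0026, SE 0.49, adjusted p = 7.01e-06). Separation of the groups was a condition for naming both genes, and their values lay many times apart. ech-9, an enoyl-CoA hydratase gene, was measured at 1.66, 3.86 and 1.9 and 52.7, 51.3 and 46.4 CPM (log2 4.32, SE 0.24, adjusted p = 1.67e-07), with double mutant libraries close together. Other genes among the 12 largest increases under the naming rule were T22F3.11 (log2 6.09), cnc-2 (log2 5.63), the patched-related gene ptr-22 (log2 5.49), T16G1.6 (log2 4.99), the antimicrobial peptide gene nlp-34 (log2 4.65) and the C-type lectin gene clec-70 (log2 4.50). Outside the naming rule, and chosen after their values were seen, cld-1 had 0 reads in wild-type and 425 in the double mutant, at least 137-fold higher, and the chemoreceptor gene str-83 had 2 against 217, a ratio of 105.1 (exact 95% interval for counting error 28.8 to 874).

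The genes that fell furthest were yolk genes, pud genes and an inositol transporter. vit-4 stood at 204, 288 and 85.8 CPM in wild-type and at 0.482, 1.03 and 1.14 CPM in the double mutant (log2 -7.69, SE 0.94, adjusted p = 0.00076). pud-3 fell from 57.7, 39.9 and 85.9 to 0.723, 0.748 and 0.98 CPM (log2 -6.18, SE 0.43, adjusted p = 5.04e-06). Wild-type replicate 3 was the lowest wild-type library for vit-4 and the highest for pud-3. No overlap between the groups was a condition for naming both genes. hmit-1.1 (WBGene00013073, chromosome V), a proton-coupled inositol transporter gene, fell from 27.7, 30.9 and 33.4 to 0.844, 0.748 and 1.47 CPM (log2 -4.85, SE 0.28, adjusted p = 1.79e-07). acox-1.2, an acyl-CoA oxidase gene of peroxisomal beta-oxidation, fell from 134, 107 and 232 to 12.77, 14.8 and 21 CPM (log2 -3.27, SE 0.33, adjusted p = 7.61e-05). The same condition held for naming hmit-1.1 and acox-1.2, and the wild-type spread of acox-1.2 came from replicate 3. The remaining genes under the rule were vit-3 (log2 -6.68), pud-1.2 (log2 -4.23), C30G12.2 (log2 -3.88), Y48E1B.8 (log2 -3.23), K07H8.16 (log2 -2.79), the hedgehog-related gene wrt-4 (log2 -2.54), sdz-24 (log2 -2.36) and the invertebrate-type lysozyme gene ilys-5 (log2 -2.25). Their calls held in every alternative tried, the leaving out of each of the 12 libraries included. vit-3 and vit-4 are near-identical, so reads that align to both would be left out as not uniquely aligned. The strand setting of the counting is unknown, so where coding genes lie across from each other their reads cannot be told apart, which among genes named here applies to F36A2.2, Y43F8B.3, Y48E1B.8, acox-1.4, acs-1, acs-17, acs-22, aldo-2, asg-1, atg-13, atic-1, cdc-48.2, col-103, col-149, cts-1, cutl-15, dhs-28, dpy-8, elo-4, elo-5, far-3, far-5, fat-5, gba-1, gpdh-1, lbp-6, nas-10, nas-33, nas-37, nhr-178, nhr-232, nlp-24, nlp-36, paic-1, pbs-3, pbs-4, pqn-22, prx-2, ptr-8, rpn-11, sdz-24, skn-1, sod-2, srlf-34, sucl-1, sucl-2, ttr-7, ugt-64, unc-22 and zipt-2.3.

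Among changed genes with the highest read share, lysosomal proteases and some collagens rose, and methyl-cycle, ATP synthase and adult collagen genes fell. asp-6, an aspartyl protease gene, went from 3333, 2982 and 3156 CPM to 4780, 4377 and 5071 CPM (log2 0.59, SE 0.11, adjusted p = 0.00249). The cathepsin B-like gene cpr-4 went from 1266, 990.4 and 914 to 1608, 1787 and 1904 CPM (log2 0.74, SE 0.13, adjusted p = 0.00158), and the lectin gene clec-63 from 2773, 2407 and 2645 to 4496, 3843 and 4122 CPM. Each of these genes was higher in all double mutant libraries. ahcy-1, which encodes the enzyme that clears S-adenosylhomocysteine in the methylation cycle, fell from 7819, 7955 and 7817 to 3844, 4830 and 5446 CPM (log2 -0.74, SE 0.12, adjusted p = 0.00128). Its wild-type libraries lay close together, and double mutant replicate 1 was the lowest. The disulfide isomerase gene pdi-2, needed for collagen processing, had 5425, 4240 and 6087 CPM in wild-type and 2756, 3194 and 4227 CPM in the double mutant (log2 -0.63, SE 0.17, adjusted p = 0.0255), a call that some left-out libraries ended (adjusted p up to 0.102). Also in this set were col-166 (log2 1.18), col-10 (log2 0.86), col-144 (log2 0.69), cpr-1 (log2 0.45) and brp-1 (log2 0.60) among those that rose, and E01G4.6 (log2 -1.16), Y39B6A.1 (log2 -0.80), col-38 (log2 -1.07), col-73 (log2 -0.94), atp-1 (log2 -0.38) and atp-2 (log2 -0.34) among those that fell. The call of col-144 (adjusted p = 0.0483) ended in 13 of 19 alternatives, that of Y39B6A.1 in 6 (up to 0.0725), that of E01G4.6 in 4 (up to 0.0587), that of cpr-1 in 3 (up to 0.103) and that of col-10 in 2 (up to 0.0534).

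**Figure D2:**
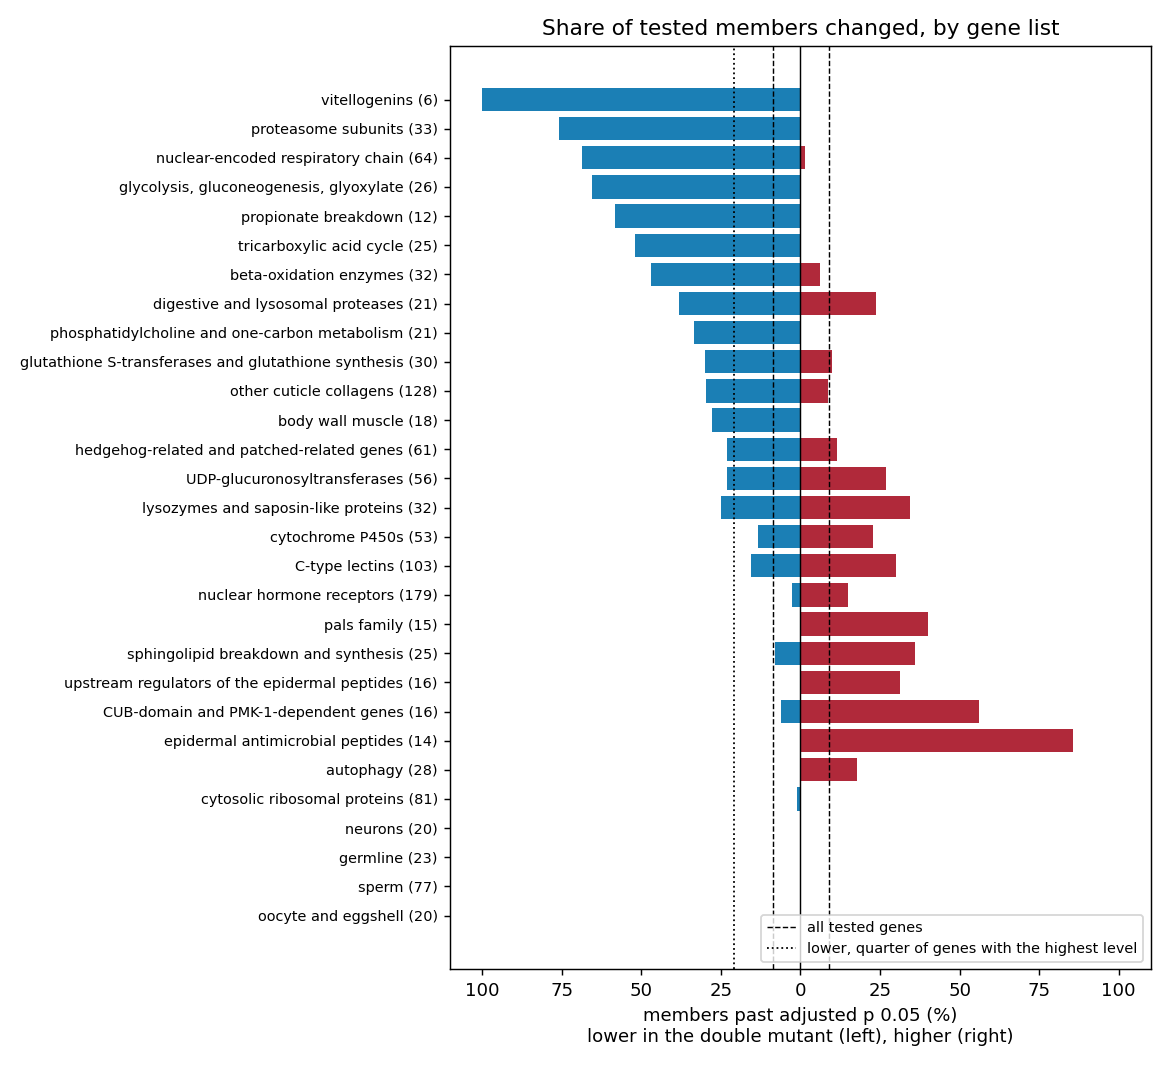
Bars give the percentage of tested members of 29 gene lists that were higher (right, red) or lower (left, blue) in the double mutant at an adjusted p under 0.05, with the number of tested members in brackets; dashed lines mark the share over all tested genes (8.94% higher, 8.62% lower) and the dotted line the share lower among the 3598 genes with the highest level (20.9%). Yolk, proteasome, respiratory chain and glycolysis lists lie far to the left, epidermal peptides far to the right, and neuron, germline, sperm and oocyte lists at 0.

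Epidermal antimicrobial peptides rose almost as a whole. Of 14 tested genes of the nlp-29 cluster and the cnc family, 12 rose and none fell, beside 8.94% of all tested genes, and their median log2 change was 2.45 beside 0.04 over all genes. Of the 19 genes listed, 5 had too few reads to test, so these counts hold only for those that passed the filter. Members with hardly any wild-type reads, such as nlp-32 and cnc-2, passed it through mutant libraries and could only be called higher. The share and the median are raised by such members. Summed over the list, wild-type libraries held 284, 307 and 339.6 CPM and double mutant libraries 1167, 898 and 743 CPM, with replicate 1 the highest. nlp-29, the best-known reporter of epidermal damage, went from 4.87, 6.96 and 6.71 to 82.2, 67.3 and 45.7 CPM (log2 3.39, SE 0.23, adjusted p = 1.72e-06). nlp-31 went from 20.7, 24.3 and 31.5 to 151, 126 and 119 CPM (log2 2.37, SE 0.15, adjusted p = 4.16e-07), and cnc-2 from 0.207, 0.376 and 0.901 to 35.8, 20.6 and 19.8 CPM. No library of the double mutant overlapped with wild-type for these genes, which for cnc-2 was a condition of its naming among the largest changes. nlp-33, the member with the most reads, did not pass the test, at 175, 179 and 197 CPM in wild-type and 294, 218 and 196 CPM in the double mutant (log2 0.36, SE 0.13, adjusted p = 0.0725). nlp-32 had 0 reads in wild-type and 88 in the double mutant, at least 28.4-fold higher, a bound that like its fitted value lies above the list's median.

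Of 16 upstream regulators of these peptides, 5 rose and none fell, with a median of 0.17. tir-1, the SARM adaptor upstream of the p38 kinase cascade, went from 41.1, 38.4 and 40.9 to 100, 69.1 and 69.7 CPM (log2 0.99, SE 0.16, adjusted p = 0.000906). vhp-1, a phosphatase acting on MAP kinases, went from 72.4, 70.9 and 75.7 to 182, 97.6 and 109 CPM (log2 0.82, SE 0.18, adjusted p = 0.00769), with double mutant replicate 1 well above the rest. The protein kinase C gene tpa-1 (log2 0.73), the transporter-like gene snf-12 (log2 0.76) and the G protein gene gpa-12 (log2 0.65) made up the rest. Without double mutant replicate 2 the list had 3 genes that rose, and without wild-type replicate 2 it had 1 that fell.

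Defence genes of the intestine moved in both directions. Of 103 tested C-type lectin genes, 31 rose and 16 fell, beside 8.94% and 8.62% of all tested genes. clec-70 went from 0.828, 0.658 and 1 to 18.8, 17.9 and 20.3 CPM (log2 4.50, SE 0.23, adjusted p = 1.45e-07), and its level in the eat-2 single mutant was 80.5, 52.1 and 63.8 CPM. clec-42 (log2 3.78), clec-17 (log2 3.63) and clec-76 (log2 2.69) were other lectins that rose. Lysozyme and saposin-like genes had 11 higher and 8 lower of 32. ilys-5 fell from 1674, 1370 and 1765 to 297, 315 and 403 CPM (log2 -2.25, SE 0.14, adjusted p = 3.63e-07) and the saposin-like gene spp-17 from 668, 666 and 551 to 162, 208 and 231 CPM (log2 -1.65, SE 0.14, adjusted p = 5.8e-06). Neither gene overlapped between groups, which for ilys-5 was a condition of its naming among the largest changes. In the opposite direction ilys-4 rose (log2 1.75). Upward calls among lysozymes numbered 7 without wild-type replicate 1 and 7 without double mutant replicate 1.

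CUB-domain and PMK-1-dependent genes, known for control by the intestinal p38 pathway, had 9 higher and 1 lower of 16, and 5 higher without double mutant replicate 1. dod-21 was nearly silent in wild-type, at 0.311, 0.188 and 0 CPM, and stood at 13.4, 16.16 and 12.7 CPM in the double mutant (log2 6.30, SE 0.39, adjusted p = 3.55e-07). clec-67 (log2 1.05) and dod-22 (log2 1.28) also rose, dod-19 (log2 0.39) rose with a call that ended in 6 alternatives (adjusted p up to 0.139), and dod-17 was the member that fell (log2 -1.34). The pals genes, a family known for its response to intracellular pathogens, had 6 higher and none lower of 15 tested of 38 listed. pals-23 went from 8.6, 8.37 and 6.11 to 35.2, 33.1 and 24.7 CPM (log2 2.00, SE 0.19, adjusted p = 1.54e-05), and pals-39 (log2 2.36), pals-37 (log2 2.40) and pals-24 (log2 1.37) rose too.

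Detoxification families had calls in both directions. Cytochrome P450 genes had 12 higher (22.6%) and 7 lower (13.2%) of 53, and UDP-glucuronosyltransferase genes 15 higher (26.8%) and 13 lower (23.2%) of 56, beside 8.94% and 8.62% of all tested genes. cyp-25A1 fell from 11.2, 6.68 and 11 to 0.964, 0.748 and 1.88 CPM (log2 -2.95, SE 0.39, adjusted p = 0.000264), while cyp-32A1 (log2 2.36) and cyp-13A2 (log2 1.26) rose. ugt-44, the member with the most reads, went from 38.9, 38.6 and 23.3 to 279, 116 and 136 CPM (log2 2.39, SE 0.33, adjusted p = 0.000695), with replicate 1 again highest, and ugt-6 (log2 -1.61), ugt-64 (log2 -1.42) and ugt-46 (log2 -1.34) fell. Glutathione S-transferase and glutathione synthesis genes had 3 higher and 9 lower of 30. gst-10 fell from 67.4, 65.4 and 113 to 17.6, 17.8 and 23.1 CPM (log2 -2.06, SE 0.19, adjusted p = 1.27e-05) and gst-4, a target of the oxidative stress regulator SKN-1, from 10, 14.6 and 10.6 to 6.39, 6.63 and 6.94 CPM (log2 -0.82, SE 0.17, adjusted p = 0.00507). gst-13 (log2 -0.90), gst-26 (log2 -0.84) and gst-27 (log2 -0.75) were lower as well. Superoxide dismutase, catalase and peroxiredoxin genes had none higher and 3 lower of 9 (prdx-2, prdx-3 and sod-2, at log2 -0.37, log2 -0.39 and log2 -0.35), and 1 lower without wild-type replicate 3 or double mutant replicate 1. Downward calls among P450 genes numbered 4 without wild-type replicate 3 or either of double mutant replicates 1 and 2. Those among glutathione genes numbered 5 without wild-type replicate 3 or double mutant replicate 2, and upward calls there 1 without wild-type replicate 1.

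Genes of mitochondrial energy production fell by small and similar amounts. Of 64 nuclear genes for respiratory chain and ATP synthase subunits, 44 fell and 1 rose, with a median log2 change of -0.35, beside 8.62% of all genes and 20.9% of the highest-level genes lower. Complex I had 27 lower of 30 tested genes, complex III with cytochrome c 4 of 10, complex IV 6 of 14 and ATP synthase 7 of 10. In complex I, 28 of the 30 genes had no overlap between the groups, beside 36.2% of all tested genes in either direction. nuo-1, a core complex I subunit, went from 394, 399 and 413 to 255, 299.5 and 299 CPM (log2 -0.50, SE 0.088, adjusted p = 0.00179). atp-2, the ATP synthase beta subunit, went from 3707, 3579 and 3606 to 2662, 2914 and 3018 CPM (log2 -0.34, SE 0.071, adjusted p = 0.0051), and lpd-5, a complex I subunit, from 115, 122 and 125 to 81.1, 82.3 and 94.6 CPM (log2 -0.49, SE 0.094, adjusted p = 0.00319). Both groups were tight and separate for these genes, of which nuo-1 and lpd-5 were named for their small p in this test. asg-1, an ATP synthase subunit, was the member that rose, from 156, 167 and 156 to 214, 239 and 259 CPM (log2 0.57, SE 0.092, adjusted p = 0.000912). Calls among these genes fell to 28 and 23 when wild-type replicate 1 and 3 was left out in turn, and to 29 for double mutant replicate 2.

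The mitochondrial genome showed the same sign. All 12 of its tested protein-coding genes had a negative log2 change, 7 of them past the test, with a median of -0.58. COX3, a subunit of complex IV, stood at 1266, 1242 and 1684 CPM in wild-type and 947, 846 and 986 CPM in the double mutant (log2 -0.59, SE 0.16, adjusted p = 0.0203), and ND1, of complex I, at 267, 302 and 361 and 216, 194 and 222 CPM (log2 -0.56, SE 0.15, adjusted p = 0.0205). The highest wild-type library was replicate 3 for both, the library with the largest share of ribosomal RNA. The count of calls was 0 without it, and 4 and 1 when double mutant replicate 1 and 2 was left out in turn. With ribosomal RNA genes removed from the table before scaling, the count was 7.

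**Figure D3:**
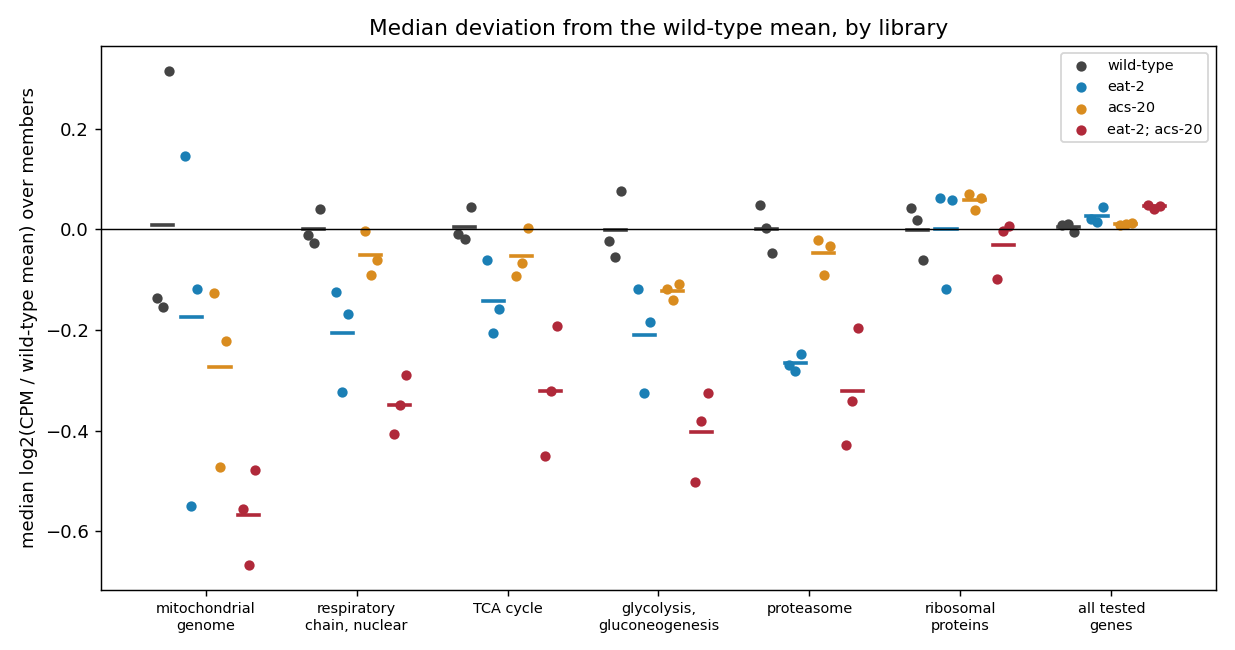
Points are libraries and short lines the mean of 3; the y axis gives, for each library, the median over the members of a list of log2(CPM / mean wild-type CPM). Double mutant libraries lie below all wild-type libraries for the mitochondrial genome (-0.67 to -0.48), the respiratory chain (-0.41 to -0.29), the TCA cycle, glycolysis and the proteasome, and overlap with wild-type for ribosomal proteins.

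Genes of carbon metabolism were lower as well. Tricarboxylic acid cycle genes had 13 lower (52%) and none higher of 25, all 25 with a negative sign and a median of -0.32, and 8 were lower without wild-type replicate 3. Of the 25, 24 were among the highest-level genes, of which 20.9% fell. sucl-2, a subunit of succinyl-CoA ligase, went from 164, 148 and 167 to 91.6, 106 and 118 CPM (log2 -0.60, SE 0.10, adjusted p = 0.00132). suca-1 (log2 -0.58), sucl-1 (log2 -0.49) and the malate dehydrogenase gene mdh-1 (log2 -0.54) were also lower, and citrate synthase, cts-1, had log2 -0.25, adjusted p = 0.0524. Glycolysis, gluconeogenesis and glyoxylate cycle genes had 17 lower (65.4%) and none higher of 26, with a median of -0.39. The enolase gene enol-1 went from 737, 699 and 831 to 421, 491 and 514 CPM (log2 -0.67, SE 0.10, adjusted p = 0.000655) and tpi-1, triosephosphate isomerase, from 175, 174 and 193 to 109, 123.3 and 122.5 CPM (log2 -0.61, SE 0.087, adjusted p = 0.000425). Every double mutant library was below every wild-type library for enol-1, tpi-1 and sucl-2, which were named for their small p in this test. ipgm-1 (log2 -0.64), pgk-1 (log2 -0.56) and aldo-2 (log2 -0.50) completed the genes named in this list.

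Genes of the proteasome, which degrades tagged proteins, were lower in large part. Proteasome subunits had 25 lower (75.8%) and none higher of 33, and all 33 had a negative sign, with a median of -0.33. Of the 33, 32 were among the highest-level genes, of which 20.9% fell. Of the proteasome subunits, 6 of 7 alpha and 7 of 7 beta subunits of the 20S core fell, as did 6 of 6 ATPases and 6 of 13 other subunits of the 19S cap. pbs-3 went from 139, 134 and 122 to 87.7, 91.5 and 98.9 CPM (log2 -0.50, SE 0.087, adjusted p = 0.0015) and the deubiquitinase subunit rpn-11 from 172, 173 and 155 to 115, 119.5 and 129 CPM (log2 -0.46, SE 0.088, adjusted p = 0.00299). The groups did not overlap for either gene, and both were named for their small p in this test. pas-2 (log2 -0.45) and pbs-4 (log2 -0.44) fell too, while rpn-2, with the most reads, had log2 -0.26, adjusted p = 0.0914. Proteasome calls numbered 7 with wild-type replicate 1 left out, 13 and 11 for double mutant replicate 1 and 2 in turn, and 13 when only the compared groups were fitted.

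Cytosolic ribosomal proteins had 1 lower and none higher of 81, with a median of -0.04. rpl-3 was at 5592, 5568 and 5143 CPM in wild-type and 4941, 5326 and 5402 in the double mutant (log2 -0.06, SE 0.068, adjusted p = 0.618), with overlapping libraries, and rpl-41.1 was the member that fell (log2 -0.44). Mitochondrial ribosomal proteins had 6 lower (8.70%, near the 8.62% of all tested genes) and 1 higher of 69, among them mrpl-44 (log2 -0.52), mrps-28 (log2 -0.51) and mrps-27 (log2 -0.51) lower and mrps-15 (log2 0.51) higher. Translation factors had 2 lower (4.76%) of 42 (eif-1.A and eif-3.J, at log2 -0.31 and log2 -0.33), cytosolic tRNA synthetases 2 (10%, near the share of all tested genes) of 20 (gars-1 and pars-1, at log2 -0.33 and log2 -0.42) and nucleolar genes none of 23 in either direction (2 higher and 1 lower at an unadjusted p under 0.05, 0 under DESeq2). Under RLE factors the translation factors had 5 lower and under DESeq2 7, and 1 or fewer without any 1 wild-type library, eat-2 replicate 3, acs-20 replicate 1 or 3, or double mutant replicate 1 or 2. The tRNA synthetases had 4 lower under RLE factors or DESeq2, 1 without wild-type replicate 1 or double mutant replicate 1 and none without wild-type replicate 3. Mitochondrial ribosomal calls downward numbered 3 without wild-type replicate 3 or double mutant replicate 1, and the call of rpl-41.1 ended without wild-type replicate 1 or 2 or double mutant replicate 1 or 2.

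Cytosolic chaperones and small heat shock genes had 1 higher (hsp-43, log2 1.16) and 1 lower (hsp-12.3, log2 -1.77) of 23. The endoplasmic reticulum folding list had 6 lower (27.3%, beside 8.62% of all tested genes) and 1 higher of 22, with 2 lower without any of wild-type replicates 1 and 3 or double mutant replicates 1 and 2. Of the 22, 19 were among the highest-level genes, of which 20.9% fell, a share near that of the list. cdc-48.2, an ATPase that extracts misfolded proteins, went from 616, 581 and 608 to 389.7, 416 and 480.2 CPM (log2 -0.49, SE 0.091, adjusted p = 0.00246), pdi-6 fell (log2 -0.52) and the sensor gene atf-6 rose (log2 0.58). The reporter chaperone of this stress, hsp-4, stood at 444, 456 and 489 CPM in wild-type and 477, 332 and 459.7 CPM in the double mutant (log2 -0.13, SE 0.13, adjusted p = 0.536). Among mitochondrial chaperones and stress genes, 2 were lower of 17: hsp-60 (log2 -0.49) and tomm-22 (log2 -0.45). hsp-6, the reporter of mitochondrial stress, had log2 -0.05, adjusted p = 0.833, and the heat shock gene hsp-16.2 had log2 -0.77, adjusted p = 0.56. Metal handling genes had 3 lower and none higher of 16 (cdr-6, cdf-2 and zipt-2.3), and 1 without wild-type replicate 3 or double mutant replicate 2. The mitochondrial list had 1 lower without wild-type replicate 3 and none without double mutant replicate 1.

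Autophagy genes, which act in recycling cell contents in the lysosome, had 5 higher (17.9%, beside 8.94% of all tested genes) and none lower of 28, with a median of 0.20. The selective autophagy receptor gene sqst-1 went from 94, 92.1 and 80.6 to 191, 134 and 137 CPM (log2 0.79, SE 0.18, adjusted p = 0.00853), and the Atg8 homologues lgg-2 from 43.8, 37.2 and 33.5 to 103, 54.6 and 56.2 CPM (log2 0.90, SE 0.20, adjusted p = 0.00947) and lgg-1 from 214, 216 and 171 to 434, 278 and 257 CPM (log2 0.69, SE 0.19, adjusted p = 0.0243). Double mutant replicate 1 was the highest library for each of them. epg-6 (log2 0.55) and atg-13 (log2 0.63) were the others, and the count was 2 without that library and 3 without wild-type replicate 3. The lysosomal proton pump had 1 lower (vha-13, log2 -0.31) of 20, a call that ended in 7 alternatives. Digestive and lysosomal proteases had 5 higher and 8 lower of 21. asp-12 rose from 154, 131 and 89.2 to 437, 385 and 587 CPM (log2 1.92, SE 0.20, adjusted p = 6.3e-05) and cpr-3 from 24.1, 24 and 22 to 87.1, 73.2 and 72.6 CPM (log2 1.73, SE 0.16, adjusted p = 9.75e-06), whereas asp-14 fell from 497, 394 and 619 to 183, 135 and 180.1 CPM (log2 -1.60, SE 0.22, adjusted p = 0.00051). asp-13 was lower too (log2 -0.84), and asp-1, the member with the most reads, had log2 0.04, adjusted p = 0.856.

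Yolk genes fell in full. All 6 vitellogenin genes were lower, and 4 passed the test without double mutant replicate 1. Their median was -4.63, and the summed level was 7907, 9677 and 3643 CPM in wild-type and 1076, 823 and 588 CPM in the double mutant. Wild-type replicate 3 was the lowest of the wild-type libraries and still lay above the highest double mutant library. vit-6 went from 4126, 4841 and 1966 to 553, 409 and 339.5 CPM (log2 -3.07, SE 0.58, adjusted p = 0.00704) and vit-1 from 248, 287 and 171 to 13.5, 15.2 and 16.7 CPM (log2 -3.95, SE 0.27, adjusted p = 5.11e-06). Markers of oocytes and eggshell, all 20 of which were tested, had none past the test, and their summed level was 1085, 1485 and 632 CPM in wild-type and 1708, 1525 and 1145 CPM in the double mutant. The part of maturation between these libraries in the yolk difference was not tested.

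Genes of the propionate shunt fell, and fatty acid oxidation lists held genes that moved each way. The propionate list had 7 lower and none higher of 12, with a median of -0.54, and summed to 7984, 7099 and 8675 CPM in wild-type and 3814, 3845 and 4628 CPM in the double mutant. Along the propionate shunt, acdh-1, the acyl-CoA dehydrogenase of its entry step, went from 2411, 2110 and 2586 to 1093, 1094 and 1343 CPM (log2 -1.01, SE 0.12, adjusted p = 9.87e-05), ech-6 from 1011, 954 and 1152 to 366, 357 and 459 CPM (log2 -1.40, SE 0.13, adjusted p = 1.28e-05) and hphd-1 from 1024, 937 and 1183 to 369, 371 and 483 CPM (log2 -1.36, SE 0.13, adjusted p = 1.36e-05). The groups lay far apart for each step, with little spread in the double mutant, and these genes were named for their small p in this test. Acyl-CoA dehydrogenase and beta-oxidation genes had 15 lower and 2 higher of 32, ech-9 (log2 4.32) being 1 of those that rose. The thiolase gene kat-1 went from 219, 209 and 234 to 106, 107 and 129 CPM (log2 -0.96, SE 0.10, adjusted p = 4.34e-05), and acdh-2 from 8.6, 20.4 and 8.31 to 0.362, 0.187 and 0.735 CPM (log2 -4.77, SE 0.46, adjusted p = 1.54e-05). Peroxisomal genes had 5 lower (22.7%, near the 20.9% of the highest-level genes) and 1 higher of 22, with acox-1.4 (log2 -0.97) and prx-2 (log2 -0.57) lower, acox-1.5 higher (log2 1.21), and dhs-28 at log2 -0.32, adjusted p = 0.0553.

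Among lipid synthesis genes, the stearoyl-CoA desaturase gene fat-7 fell from 117, 141 and 104 to 48.6, 40.3 and 62 CPM (log2 -1.26, SE 0.18, adjusted p = 0.000439) and the palmitoyl-CoA desaturase gene fat-5 rose from 8.08, 7.71 and 8.01 to 25.4, 24.2 and 18.7 CPM (log2 1.52, SE 0.17, adjusted p = 6.39e-05). The list of desaturases had 2 lower and 1 higher of 7, fat-1 being the other that fell (log2 -0.44), and fat-2 had log2 0.17, adjusted p = 0.35. Without wild-type replicate 3 the desaturases had 1 lower. Elongases had 3 lower of 9 (elo-4, elo-5 and elo-9), with 0 to 5 across alternatives, and elo-1 had log2 -0.14, adjusted p = 0.476. The elongase count was 0 without wild-type replicate 1 or 3 or double mutant replicate 1, 1 without double mutant replicate 2 or acs-20 replicate 3, and 5 without wild-type replicate 2 or under DESeq2. Acyl-CoA synthetases had 3 higher and 4 lower of 22. acs-2, which feeds fatty acids to mitochondrial oxidation and responds to fasting, went from 6.11, 8.65 and 4.61 to 35.3, 15.3 and 11.3 CPM (log2 1.65, SE 0.39, adjusted p = 0.0133), with replicate 1 far above replicates 2 and 3 and a call that ended in 4 alternatives. acs-11 (log2 0.85) and acs-17 (log2 0.66) rose, and acs-1 (log2 -0.76) and acs-22 (log2 -0.58), the paralog of acs-20, fell. Lipase genes had 3 higher and 1 lower of 11. The lysosomal lipase gene lipl-1, known to respond to fasting, went from 3.31, 2.73 and 6.61 to 24.8, 17 and 24.9 CPM (log2 2.40, SE 0.33, adjusted p = 0.000514), and fil-1 (log2 1.93) and the triglyceride lipase gene atgl-1 (log2 0.66) rose, while hosl-1 fell (log2 -0.49), which did not pass without wild-type replicate 1 or 3 or double mutant replicate 1 or 2.

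Lipid-binding proteins had 5 higher and 3 lower of 16, with far-5 (log2 2.35) and lbp-8 (log2 2.28) higher and lbp-6 lower (log2 -0.85). Sphingolipid genes had 9 higher and 2 lower of 25, and 1 lower without wild-type replicate 1 or 3, acs-20 replicate 3 or double mutant replicate 1. asah-1, an acid ceramidase gene, went from 24, 22.8 and 21.7 to 53.8, 62 and 61.7 CPM (log2 1.37, SE 0.15, adjusted p = 6.28e-05) and the acid sphingomyelinase gene asm-2 from 7.56, 6.77 and 5.51 to 17.2, 24.5 and 23.8 CPM (log2 1.73, SE 0.18, adjusted p = 3.62e-05). Both are lysosomal enzymes of sphingolipid breakdown. No library overlapped, and both genes were named for their small p in this test. The glucosylceramide enzymes gba-1, which breaks it down, and cgt-1, which makes it, both rose (log2 0.96 and log2 1.52). Phosphatidylcholine and one-carbon genes had 7 lower and none higher of 21. pmt-2, a methyltransferase that makes phosphocholine, fell from 2452, 2062 and 2461 to 1155, 1309 and 1412 CPM (log2 -0.85, SE 0.13, adjusted p = 0.00076), mel-32, serine hydroxymethyltransferase, from 1614, 1395 and 1569 to 717, 868 and 978 CPM (log2 -0.84, SE 0.12, adjusted p = 0.000526) and the folate enzyme gene dao-3 from 128, 106 and 144 to 62.8, 49.8 and 64.8 CPM (log2 -1.09, SE 0.14, adjusted p = 0.000129). These enzymes and ahcy-1 act at linked steps of methyl supply.

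Small-molecule transport showed single strong changes in mixed lists. Osmolyte and inositol genes had 3 lower and 1 higher of 9. Beside hmit-1.1, the glycerol-3-phosphate dehydrogenase genes gpdh-1 (log2 -1.74) and gpdh-2 (log2 -0.53) fell, and the trehalose synthesis gene tps-1 rose from 20.8, 26.6 and 24.3 to 55.4, 50.2 and 42.6 CPM (log2 1.04, SE 0.15, adjusted p = 0.000429). Aquaporins had aqp-8 higher (log2 1.19) and aqp-11 lower (log2 -0.70) of 10. Amino acid and peptide transporters had 3 lower (aat-4, aat-6 and aat-1) and 1 higher (pept-2, log2 0.86) of 12, and the intestinal peptide transporter gene pept-1 had log2 -0.39, adjusted p = 0.0586. Without wild-type replicate 1 the transporters had 1 lower, and without double mutant replicate 1 they had 2 higher. Aquaporins had 2 higher without eat-2 replicate 2 or acs-20 replicate 2.

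Collagen genes of the cuticle, the extracellular coat that the epidermis secretes, moved both ways. Outside the furrow collagens, 11 were higher (8.59%, near the 8.94% of all tested genes) and 38 lower (29.7%) of 128, with a median of -0.48. Of the 128, 91 were among the highest-level genes, of which 20.9% fell, and the median of the list in double mutant replicate 1 (log2 -0.06) lay above that in wild-type replicate 3 (log2 -0.22). col-42 rose from 162, 279 and 170 to 830.3, 1026 and 839 CPM (log2 2.14, SE 0.19, adjusted p = 1.56e-05), col-98 from 134, 213 and 145 to 649.7, 850.2 and 665 CPM (log2 2.14, SE 0.18, adjusted p = 7.81e-06) and col-103 from 113, 208 and 138 to 543, 724 and 584 CPM (log2 2.01, SE 0.20, adjusted p = 3.11e-05). These collagens share a pattern in which wild-type replicate 2 was the highest wild-type library and lay well below the double mutant. col-149 fell from 542, 597 and 641 to 160.4, 193 and 267 CPM (log2 -1.52, SE 0.21, adjusted p = 0.000446). Without wild-type replicate 1 the counts were 6 higher and 25 lower, and upward calls numbered 7 without wild-type replicate 3 or double mutant replicate 2 and 18 without wild-type replicate 2. The furrow collagens, whose loss is known to switch on nlp-29, had none past the edgeR test of 6, also at an unadjusted p under 0.05 (0 genes) and under DESeq2 (0 genes), all with a negative sign and a median of -0.42. dpy-8 was at 381, 299.7 and 424 CPM in wild-type and 197, 241 and 349.8 CPM in the double mutant (log2 -0.49, SE 0.27, adjusted p = 0.26).

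Adult cuticle genes, which begin to be expressed around the last moult, had 6 lower and none higher of 9. rol-1 fell from 1830, 1361 and 1802 to 831, 523 and 942 CPM (log2 -1.12, SE 0.24, adjusted p = 0.00745) and col-63 from 1485, 1093 and 1595 to 690.3, 429 and 760.4 CPM (log2 -1.15, SE 0.24, adjusted p = 0.00674), with col-49 (log2 -1.04) and col-38 alongside. Double mutant replicate 2 was the lowest library for rol-1, col-63 and col-49. col-19, a marker of the adult stage, varied widely, at 309, 580 and 109 CPM in wild-type and 274, 157 and 78 CPM in the double mutant (log2 -0.97, SE 0.85, adjusted p = 0.484). Moulting genes had 4 lower (19.05%) and 2 higher (9.52%) of 21. Of the 21, 15 were among the highest-level genes, of which 20.9% fell, a share near that of the list. The share higher was near the 8.94% of all tested genes. mlt-10 fell from 879, 489.6 and 982 to 357, 332 and 446 CPM (log2 -1.05, SE 0.23, adjusted p = 0.00836), mlt-8 (log2 -0.65), nas-36 (log2 -0.61) and nas-37 (log2 -1.02) were lower and the receptor gene nhr-25 was higher (log2 1.02). Such genes cycle within a larval stage, and the part of timing between the libraries was not tested. Moulting calls fell to 2 lower and none higher without wild-type replicate 3 or without double mutant replicate 2, and rose to 7 lower without wild-type replicate 2.

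Hedgehog-related and patched-related genes, which act in the epidermis, had 14 lower (22.95%) and 7 higher (11.5%) of 61, beside 8.62% and 8.94% of all tested genes. Of the 61, 32 were among the highest-level genes, of which 20.9% fell. wrt-4 fell from 486, 367 and 598 to 84.5, 62.6 and 103 CPM (log2 -2.54, SE 0.23, adjusted p = 1.86e-05) and ptr-8 rose from 10.6, 24.9 and 10.7 to 91.1, 81.8 and 67.1 CPM (log2 2.37, SE 0.28, adjusted p = 0.000221). wrt-8 (log2 -1.26) and grl-16 (log2 -0.89) fell. Downward calls numbered 9 without wild-type replicate 1 or double mutant replicate 2 and 24 without wild-type replicate 2, and upward calls 4 without double mutant replicate 1. Cuticlins had 4 lower and 3 higher of 26, with cutl-15 (log2 -1.02), cut-6 (log2 -1.08) and cut-2 (log2 -0.85) lower and cutl-3 higher (log2 1.22). Astacin metalloproteases had 6 higher and 2 lower of 27. nas-33 went from 1.97, 1.79 and 1.7 to 17.2, 16.9 and 10.7 CPM (log2 3.02, SE 0.27, adjusted p = 8.78e-06), nas-9 and nas-3 rose (log2 2.37 and log2 2.65), and nas-10 had 1 read in wild-type and 163 in the double mutant, a ratio of 158 (exact 95% interval 27.95 to 6276). Downward astacin calls numbered 1 without wild-type replicate 1 or 3 or double mutant replicate 1 or 2.

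Regulators of dietary restriction and lifespan had 6 higher and 1 lower of 32, with 3 higher without double mutant replicate 1. pha-4, a forkhead factor needed for the long life of eat-2 mutants, went from 13.7, 11.9 and 13.8 to 30.4, 20.3 and 16.9 CPM (log2 0.77, SE 0.19, adjusted p = 0.0126), with replicate 1 highest. daf-2, the insulin receptor gene, went from 53.1, 46.4 and 53 to 69.4, 75.3 and 70.5 CPM (log2 0.50, SE 0.095, adjusted p = 0.00304), a narrow difference without overlap. eor-1 (log2 0.53) and pqm-1 (log2 0.55) also rose and hif-1 fell (log2 -0.33, with the call lost in 8 alternatives), while daf-16 had log2 -0.05, adjusted p = 0.782 and skn-1 log2 0.30, adjusted p = 0.0567. Nuclear hormone receptors, a large family of transcription factors mostly without a known ligand, had 27 higher and 5 lower of 179. nhr-11 went from 4.04, 5.64 and 4.71 to 21.5, 14.2 and 14.9 CPM (log2 1.80, SE 0.22, adjusted p = 0.000123), nhr-178 and nhr-232 rose (log2 2.32 and log2 1.08), and nhr-87 had 1 read in wild-type and 98 in the double mutant, a ratio of 95.0 (exact 95% interval 16.6 to 3789). nhr-114, the member with the most reads, fell (log2 -0.71), with a call that ended in 6 alternatives. Receptor calls downward numbered 2 without wild-type replicate 3 and 3 without wild-type replicate 1 or double mutant replicate 2.

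FMRFamide-like neuropeptide genes had 6 higher (beside 8.94% of all tested genes) and none lower of 30, but none without wild-type replicate 1 or double mutant replicate 1, and 1 without wild-type replicate 2 or double mutant replicate 2. flp-3 had 4.25, 5.83 and 6.71 CPM in wild-type and 11.81, 11.7 and 7.76 CPM in the double mutant (log2 0.89, SE 0.24, adjusted p = 0.0197). Neuropeptide-like genes outside the nlp-29 cluster had 7 higher (14.3%) and 2 lower of 49, with nlp-62 (log2 2.18) and nlp-59 (log2 1.45) higher and nlp-36 (log2 -0.61) and nlp-24 (log2 -0.74) lower. Upward calls numbered 4 without any of wild-type replicates 1 and 2 or double mutant replicates 1 and 2. Insulin-like peptides had ins-4 (log2 1.79) and ins-7 (log2 1.25) higher (11.76%) and none lower of 17, shares near that of all tested genes.

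Few tissue markers passed the test. Neuron, germline, sperm and oocyte lists had no gene past the edgeR test among 20, 23, 77 and 20 tested genes. By sign, 14 of 20 neuron, 22 of 23 germline and 18 of 20 oocyte genes were positive (medians 0.10, 0.25 and 0.54). Of the sperm genes, 62 of 77 were negative (median -0.20). Wild-type libraries spread widely, with oocyte list medians from -0.70 to 0.57, so the lack of calls does not show equal levels. At an unadjusted p under 0.05, neurons had 1 lower and the germline, sperm and oocyte lists 0, and DESeq2 called 1 neuron gene lower and 0 in the others. Germline markers summed to 1572, 1965 and 1084 CPM in wild-type and 1481, 1858 and 1877 CPM in the double mutant, and neuron markers to 711, 717 and 809 and 819, 792 and 693 CPM. The intestine list had 1 higher (pgp-1) and 1 lower (ges-1) of 18, and 3 or 4 lower under RLE factors, DESeq2 or without eat-2 replicate 1 or 2 or double mutant replicate 3. pgp-1, a P-glycoprotein transporter gene, went from 49.4, 35.8 and 49.1 to 207, 259 and 241 CPM (log2 2.40, SE 0.22, adjusted p = 1.84e-05), and the intestinal actin gene act-5 had log2 -0.26, adjusted p = 0.12. Body wall muscle had 5 lower (27.8%) and none higher of 18 with a median of -0.31. All 18 were among the highest-level genes, of which 20.9% fell, a share near that of the list. The muscle count depended on scaling and libraries, with 10 under RLE factors, 12 under DESeq2, 1 without wild-type replicate 1 or double mutant replicate 2, 3 without wild-type replicate 2 or double mutant replicate 1 and 9 without wild-type replicate 3. unc-22 (log2 -0.60), dim-1 (log2 -0.42), unc-27 (log2 -0.37) and unc-15 (log2 -0.35) were among those called, and the body wall myosin gene unc-54 had log2 -0.31, adjusted p = 0.131. Pharyngeal muscle had none past the edgeR test of 8 (1 lower at an unadjusted p under 0.05, 0 under DESeq2), with a median of -0.09, and pharyngeal gland had 1 of 6 (phat-6, log2 1.22), a call that ended in 6 alternatives.

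Of the remaining lists, DNA replication had 4 higher (12.9%, beside 8.94% of all tested genes) and none lower of 31 (psf-3, orc-3, rfc-1 and rfc-4, at log2 0.72, log2 0.58, log2 0.45 and log2 0.34). That count was 1 without wild-type replicate 1 or 3 or double mutant replicate 2 or 3, and 2 without double mutant replicate 1, eat-2 replicate 3 or acs-20 replicate 3. Histones had 2 higher of 35 (his-32 and his-72), 5.71% and so below the share of all tested genes, and 1 without double mutant replicate 1. Glutamine and asparagine-rich abu and pqn genes had 7 higher (12.5%) and 5 lower (8.93%) of 56, near the 8.94% and 8.62% of all tested genes. Among them pqn-37 (log2 1.53) and pqn-92 (log2 1.16) were higher and pqn-32 (log2 -1.02), abu-12 (log2 -0.83) and pqn-22 (log2 -0.59) lower. Upward calls numbered 3 without wild-type replicate 1 or double mutant replicate 2 and 4 without eat-2 replicate 3. The nspa to nspe peptide families had 7 lower and none higher of 34, with nspc-18 among them (log2 -1.90). These are near-identical gene copies, as are the pud genes and some abu genes, so reads that align to several copies would be left out. Without wild-type replicate 3 or double mutant replicate 1 the count was 3, and without double mutant replicate 3 it was 4. All 3 tested pud genes fell, pud-4 from 20.2, 14.6 and 32.1 to 0.603, 0.0934 and 0.163 CPM (log2 -6.36, SE 0.48, adjusted p = 3.45e-06).

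Genes at which the double mutant lay beyond both single mutants were then sought. In the test against the eat-2 single mutant 304 genes differed (2.11%; 1.36% higher and 0.757% lower). Against the acs-20 single mutant 1863 did (12.9%; 7.64% higher and 5.31% lower). These tests share the double mutant libraries with the comparison to wild-type, so they are not independent of it. Past all 3 tests were 53 genes higher in the double mutant (0.368%) and 24 lower (0.167%). The double mutant count against eat-2 fell to 154 when eat-2 replicate 3 was left out, and to 155 and 174 when double mutant replicate 1 and 2 was left out in turn. That against acs-20 fell to 1061 and 919 when acs-20 replicate 1 and 3 was left out in turn, and to 1008 and 1001 for double mutant replicate 1 and 2.

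Among the genes that were higher, srw-85, a chemoreceptor-family gene, had 3.62, 4.42 and 4.81 CPM in wild-type, 0.602, 0.348 and 0.376 CPM in eat-2, 5.8, 4.35 and 5.46 CPM in acs-20 and 21.6, 22.6 and 16.8 CPM in the double mutant. Against eat-2 the change was log2 5.50, SE 0.26, adjusted p = 6.28e-08, and against acs-20 log2 1.96, SE 0.19, adjusted p = 3.1e-05. The eat-2 libraries were the lowest and the double mutant ones the highest, with no overlap. The neuropeptide-like gene nlp-25 had 2.9, 3.39 and 2.4 CPM in wild-type, 1.81, 2.21 and 2.16 CPM in eat-2, 6.54, 12.5 and 6.16 CPM in acs-20 and 31.5, 18.7 and 14 CPM in the double mutant. Its wild-type and eat-2 libraries lay close, the acs-20 libraries above them and the double mutant above acs-20 (log2 1.32, SE 0.30, adjusted p = 0.0134, a call that ended in 4 alternatives). irg-1, an infection response gene, had 2.18, 4.14 and 2.8 CPM in wild-type, 3.98, 2.09 and 3.01 CPM in eat-2, 3.48, 2.17 and 2.8 CPM in acs-20 and 8.68, 8.32 and 6.86 CPM in the double mutant, so the double mutant libraries stood clear of the other 3 genotypes. Against wild-type its change was log2 1.37, SE 0.27, adjusted p = 0.00334, and its call against eat-2 ended in 4 alternatives. best-1, a bestrophin channel gene, had 3.42, 4.14 and 3.81 CPM in wild-type, 9.64, 8.83 and 5.83 CPM in eat-2, 4.85, 6.41 and 5.74 CPM in acs-20 and 33.5, 21.5 and 12.5 CPM in the double mutant, with double mutant replicate 1 the highest of all and a call against eat-2 that ended in 5 alternatives. The rest under the rule were F48C1.11, C38D9.2, F59E11.7, the transthyretin-related gene ttr-7, F15E6.3 and idpp-12. Against eat-2 and acs-20 in turn their log2 changes were 3.38 and 2.34 for F48C1.11, 3.64 and 1.34 for C38D9.2, 2.28 and 1.32 for F59E11.7, 1.77 and 1.43 for ttr-7, 1.90 and 1.57 for F15E6.3 and 2.01 and 2.27 for idpp-12. Both calls of F48C1.11, C38D9.2 and idpp-12 held in the alternatives tried. Calls ended in 4 alternatives against eat-2 and 5 against acs-20 for ttr-7 (adjusted p up to 0.12 and 0.0765), in 3 and 2 for F15E6.3 (up to 0.108 and 0.0641) and in 5 against acs-20 for F59E11.7 (up to 0.106).

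**Figure D4:**
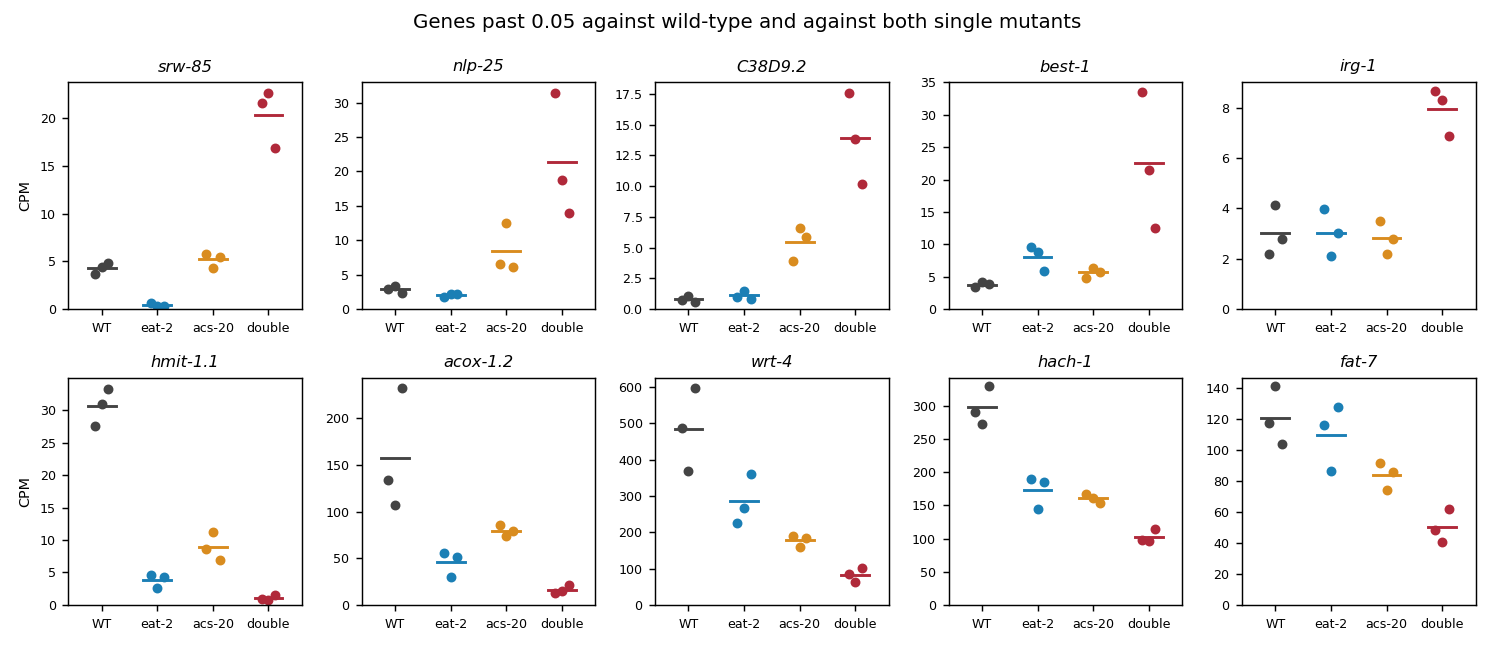
CPM of 10 genes in the 12 libraries, by genotype; points are libraries, lines are means of 3, and each axis starts at 0. In the upper row the double mutant is the highest genotype and in the lower row the lowest, as for srw-85 and hach-1.

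Among the genes that were lower, hmit-1.1 had 27.7, 30.9 and 33.4 CPM in wild-type, 4.58, 2.56 and 4.33 CPM in eat-2, 8.54, 11.2 and 6.86 CPM in acs-20 and 0.844, 0.748 and 1.47 CPM in the double mutant. Every step down was free of overlap, and the double mutant was lower than eat-2 (log2 -1.86, SE 0.32, adjusted p = 0.00696) and acs-20 (log2 -3.07, SE 0.30, adjusted p = 3.14e-05). hach-1, the hydrolase of the propionate shunt, had 291, 273 and 331 CPM in wild-type, 191, 145 and 186 CPM in eat-2, 167, 162 and 153 CPM in acs-20 and 97.3, 95.8 and 115 CPM in the double mutant (log2 -0.76, SE 0.12, adjusted p = 0.00406 against eat-2, log2 -0.65, SE 0.12, adjusted p = 0.0042 against acs-20). fat-7 had 117, 141 and 104 CPM in wild-type, 116, 86.1 and 127 CPM in eat-2, 91.6, 74.1 and 85.4 CPM in acs-20 and 48.6, 40.3 and 62 CPM in the double mutant, and the double mutant lay below each single mutant in every library (log2 -1.13, SE 0.18, adjusted p = 0.00412 against eat-2, log2 -0.73, SE 0.18, adjusted p = 0.0177 against acs-20). The call against acs-20 ended in 5 alternatives, at up to 0.0673. Selected for being lower in all 3 tests of the double mutant, atic-1 and paic-1 encode enzymes of purine synthesis. No list of that pathway was counted. atic-1, which performs its last steps, had 204, 182 and 263 CPM in wild-type, 146, 104.1 and 166 CPM in eat-2, 202, 157 and 180 CPM in acs-20 and 75.2, 74.3 and 89 CPM in the double mutant, and paic-1, which acts before it, 135, 116 and 166 CPM in wild-type, 108, 79 and 107 CPM in eat-2, 124, 99 and 106 CPM in acs-20 and 52.8, 48.8 and 64.8 CPM in the double mutant. In each the double mutant libraries were the lowest of the 12, which the selection favours. The adjusted p against eat-2 was 0.0313 for atic-1 and 0.0151 for paic-1, and each of these calls ended in 5 alternatives, at up to 0.145 and 0.0879. The set was completed by wrt-4, acox-1.2, sdz-24, the phosphoglycolate phosphatase gene pgph-3 and T19C3.2. Against eat-2 and acs-20 in turn their log2 changes were -1.78 and -1.09 for wrt-4, -1.49 and -2.28 for acox-1.2, -1.71 and -0.99 for sdz-24, -1.13 and -0.73 for pgph-3 and -0.74 and -0.78 for T19C3.2. Calls against eat-2 ended in 7 alternatives for acox-1.2 (adjusted p up to 0.164), 9 for T19C3.2 (up to 0.181) and 2 for pgph-3, and calls against acs-20 in 9 for pgph-3 (up to 0.152), 5 for sdz-24 (up to 0.105) and 1 for T19C3.2, while those of wrt-4 held.

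Whether the change of the double mutant differs from the sum of both single-mutant changes on the log scale was tested gene by gene. This interaction was past an adjusted p of 0.05 for 27 genes (0.188%), 20 positive (0.139%) and 7 negative (0.0486%). dod-24, a CUB-domain gene of the intestine, had 119, 112 and 116 CPM in wild-type, 132, 89.8 and 120 CPM in eat-2, 19.1, 12.4 and 17.1 CPM in acs-20 and 103, 97.5 and 91 CPM in the double mutant (interaction log2 2.61, SE 0.22, adjusted p = 8.63e-05). The acs-20 libraries were far below the rest. Against wild-type the double mutant had log2 -0.25, SE 0.15, adjusted p = 0.273, which does not show that the levels are equal. The pharyngeal myosin gene myo-2 had 75.7, 84.1 and 76.1 CPM in wild-type, 51.4, 53.7 and 44.3 CPM in eat-2, 25.2, 46.3 and 31.5 CPM in acs-20 and 66, 76.1 and 71.2 CPM in the double mutant (interaction log2 1.71, SE 0.24, adjusted p = 0.00906). Both single mutants were below wild-type and the double mutant overlapped with it. The pharyngeal troponin gene tnt-4 had 17.7, 20.9 and 18.1 CPM in wild-type, 17.5, 9.29 and 11.4 CPM in eat-2, 6.65, 7.83 and 6.02 CPM in acs-20 and 17.7, 15.5 and 15.8 CPM in the double mutant, again lowest in acs-20 (interaction log2 1.83, SE 0.28, adjusted p = 0.0201). Calls for the interaction ended without eat-2 replicate 3 for myo-2 (adjusted p = 0.0562) and in 5 alternatives for tnt-4.

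spp-23, a saposin-like gene, had 37.8, 36.1 and 40 CPM in wild-type, 68.1, 57 and 70 CPM in eat-2, 62.6, 55.7 and 57.1 CPM in acs-20 and 28.6, 38.8 and 39.4 CPM in the double mutant (interaction log2 -1.49, SE 0.18, adjusted p = 0.00195). All single mutant libraries exceeded those of the other genotypes. aat-8, an amino acid transporter gene, had 3, 3.57 and 4.11 CPM in wild-type, 2.05, 2.32 and 2.73 CPM in eat-2, 16.7, 12.9 and 16.3 CPM in acs-20 and 2.29, 2.52 and 2.45 CPM in the double mutant, with the acs-20 libraries highest (interaction log2 -2.07, SE 0.29, adjusted p = 0.00906). The lectin gene clec-52 had 17.8, 14 and 17.1 CPM in wild-type, 63.3, 34.4 and 39 CPM in eat-2, 16.1, 13.6 and 15.7 CPM in acs-20 and 11.1, 11.5 and 15.9 CPM in the double mutant, with the eat-2 libraries highest (interaction log2 -1.71, SE 0.31, adjusted p = 0.0483). Y43F8B.3 had 20.4, 18.6 and 17.8 CPM in wild-type, 10.2, 10.6 and 9.22 CPM in eat-2, 8.02, 12.2 and 8.68 CPM in acs-20 and 19, 19.3 and 20.7 CPM in the double mutant, with both single mutants lowest. F36A2.2 had 16.9, 16.8 and 18.1 CPM in wild-type, 18.9, 22.2 and 18.6 CPM in eat-2, 4.75, 5.22 and 5.18 CPM in acs-20 and 19.2, 20.2 and 20.3 CPM in the double mutant, with the acs-20 libraries lowest. The interaction count ranged from 8 without eat-2 replicate 3 to 149 without acs-20 replicate 2.

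**Figure D5:**
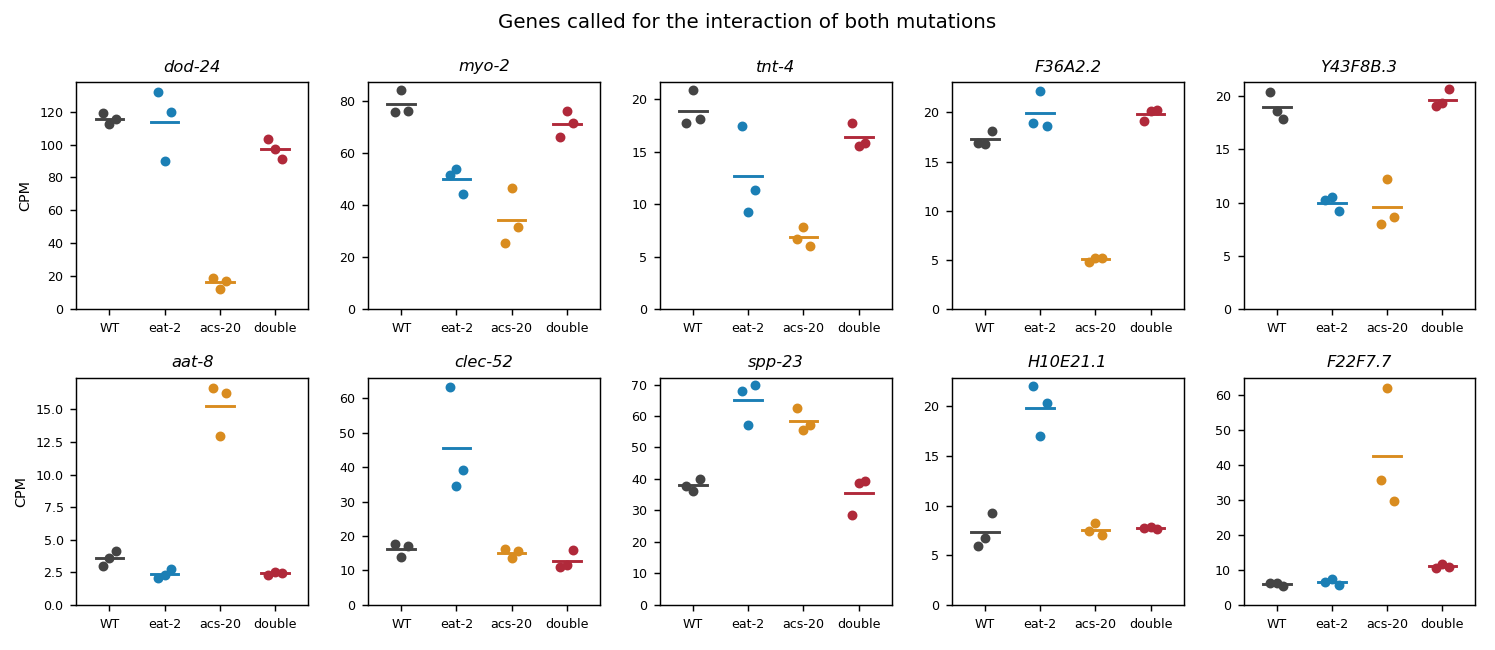
CPM of 10 genes called for the interaction in the 12 libraries, by genotype; points are libraries, lines are means of 3, and each axis starts at 0. For dod-24, tnt-4 and F36A2.2 the acs-20 libraries are the lowest, and for spp-23 both single mutants lie above wild-type and the double mutant.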

How the data were processed

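RNA from whole late L4 worms was measured by RNA-seq in 12 libraries, 3 per genotype. Per the file contents, the authors deposited raw read counts per gene, 1 table per library, unnormalised. FastQC 0.11.5, HTSeq, TopHat2 and DESeq2 are listed in the submitters' processing notes, without role or order. The sources used here do not give the build, the annotation or the strand setting. Summary lines that name no gene were left out (reads in no feature, 44.1% to 46.5% of all, and reads not uniquely aligned, 5.21% to 9.99%). Unique alignment lowers counts of near-identical genes. Gene symbols and chromosomes came from Ensembl release 115 (WBcel235), which named 43720 of 46739 listed genes.

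Genes kept by filterByExpr (minimum count 10, minimum total 15) were 14390, with 99.8% or more of gene counts in each library. The filter worked by genotype, so a gene with hardly any wild-type reads could pass through another genotype. Against wild-type such a gene could only be called higher. edgeR 4.0.16 in R 4.3.3 was used with TMM factors and 1 robust quasi-likelihood fit of 4 group means over 12 libraries (8 residual degrees of freedom). Adjusted p-values are Benjamini-Hochberg over all tested genes, with a threshold of 0.05 on 2-sided tests. CPM values used TMM-scaled library sizes, and standard errors came from the quasi-likelihood F. The interaction was the double mutant change less both single-mutant changes. Counts of 0 over a group were set to a floor of 3 counts, and these bounds and the exact intervals cover counting error only. No 2 replicates of wild-type or of the double mutant agreed within sampling noise, and those of the single mutants were not compared.

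Samples were grouped by their labelled strain and genotype. Named genes were the targeted genes, the 12 largest changes each way with an average log2 CPM of at least 3, the 8 changed genes each way with the highest level, genes past all 3 tests of the double mutant, interaction genes, the called genes of each of 65 lists with the smallest p against wild-type, the member with the most reads of each list, and reporter genes. The 12 largest changes each way also had to show no overlap between the double mutant and wild-type libraries. Each way, at most 2 genes per family and at most 3 with only a sequence name were taken among them. The members and lists were chosen with earlier results of these data known. As alternatives, each library was left out in turn, ribosomal RNA genes were removed, a replicate block was added, only the compared groups were fitted, a 2-fold minimum was set, the filter was dropped, and RLE factors or DESeq2 1.42.0 were used.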

Additional observations from a re-analysis of the deposited data

Results flagged for a closer look

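Of the 27 genes past the interaction test, 15 are described here: the 8 positive and 6 negative ones with the smallest p among genes averaging 2 or more on the log2 CPM scale, plus idpp-12, which also lay beyond both single mutants. For each of them the effect of acs-20(tm3232) in the eat-2(ad465) background differed from its effect in the wild-type background, by the test of the interaction itself. Of these 15, those with a positive interaction (log2) were srw-85 (5.22), idpp-12 (2.93), dod-24 (2.61), pud-1.2 (2.29), Y43F8B.3 (1.95), tnt-4 (1.83), F36A2.2 (1.77), myo-2 (1.71) and C45B2.2 (1.51). Those with a negative one were aat-8 (-2.07), F22F7.7 (-2.07), Y42G9A.3 (-2.04), clec-52 (-1.71), spp-23 (-1.49) and H10E21.1 (-1.41). The calls of srw-85, dod-24, F36A2.2, Y43F8B.3, spp-23 and Y42G9A.3 held in all 18 alternatives run for the interaction. Those of aat-8 and myo-2 ended without eat-2 replicate 3 (highest adjusted p = 0.0562 for each). The remaining calls ended in 5 to 9 alternatives, with highest adjusted p-values of 0.0764 for tnt-4, 0.0856 for C45B2.2, 0.0875 for pud-1.2, 0.1 for F22F7.7, 0.114 for H10E21.1, 0.124 for idpp-12 and 0.164 for clec-52. Others past the interaction test included ckb-2 (log2 1.52) and asg-1 (log2 0.81).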

How the results depend on the processing

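With 3 libraries a group and 8 residual degrees of freedom, calls of small changes depended on single libraries, and depth limits genes under 10 reads. The 2526 genes that differed from wild-type became 905 with a 2-fold minimum, and 1571 to 2677 with a library left out. The 304 genes against eat-2 became 542 under DESeq2, 579 with no filter, 198 with a 2-fold minimum and 154 to 434 with a library left out. The 1863 against acs-20 became 748 with a 2-fold minimum and 919 to 2026 with a library left out. The 27 interaction genes became 125 under DESeq2, 99 with no filter and 8 to 149 with a library left out. The cause was not tested, beyond fewer samples or a stricter test. Against wild-type the count stayed within 1.5 times under RLE factors (2555), DESeq2 (2646), no filter (2633) and only the groups compared (2051), while the higher share of calls moved from 1286 of 2526 to 1140 of 2555 under RLE factors and 1129 of 2646 under DESeq2. Of 252 called named genes, 192 kept their call in every alternative other than the 2-fold minimum, and none of 301 took the opposite sign with a call. Correlations of deviations between same-numbered wild-type and double mutant libraries were 0.044, 0.043 and 0.196. The labels do not say whether samples with the same number were handled together. A replicate block gave 3167 genes against wild-type, 653 against eat-2, 2421 against acs-20 and 56 for the interaction. It was not the case that every sample correlated best with its own number.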

Other observations

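The families in this paragraph lie outside the lists and were chosen after their values were seen, and other families had shares as high or higher. Of 12 tested ced genes, most known for cell death and corpse engulfment, 6 rose and none fell in the double mutant against wild-type (8.94% of all tested genes rose). ced-1, the engulfment receptor gene, was at 45.7, 39.0 and 43.7 CPM in wild-type and 71.6, 71.8 and 73.4 CPM in the double mutant (log2 0.76, adjusted p = 0.00036). All double mutant libraries lay above all wild-type ones. The engulfment genes ced-12 (log2 0.49), ced-6 (log2 0.42), ced-2 (log2 0.49) and ced-7 (log2 0.34) and the Apaf-1 homologue ced-4 (log2 0.41) were the others. Transthyretin-like genes, a family of small secreted proteins, had 14 higher and 7 lower of 47, led by ttr-21 (log2 3.54) and ttr-20 (log2 1.51). F-box A genes, which encode candidate adaptors of ubiquitin ligases, had 15 higher and 3 lower of 92, led by fbxa-24 at 2.28, 2.26 and 1.40 CPM in wild-type and 12.3, 9.53 and 12.3 CPM in the double mutant (log2 2.51). No overlap between the groups was seen for fbxa-24.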
